A study of Mus musculus with 12 samples.

Results

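Genes of the tight junction, the adherens junction and the desmosome were followed in the organ of Corti, where the cochlea holds its hair cells, in mice lacking the tetraspan-like proteins clarin-1 and clarin-2. The set was defined by symbol: every claudin whose symbol is Cldn followed by digits, and 20 named junction genes. It was chosen with earlier results of these data known. It held 43 of the 55348 genes of the count tables, namely 23 claudins, 6 other membrane proteins of the tight junction, 3 proteins of the tight junction plaque, E-cadherin (Cdh1) with Epcam, and 9 desmosome genes. All symbols were present, 38 genes passed the filter on low counts and were tested among 19052 genes, and 5 claudins did not (Cldn16, which had no count in any library, Cldn17, Cldn18, Cldn20 and Cldn24).

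Organs of Corti were taken at postnatal day 21 from mice of 4 genotypes, namely wild-type, both single mutants (Clrn1-/- and Clrn2-/-) and their double mutant (Clrn1-/-Clrn2-/-). Each genotype had 3 libraries, 12 together. Clrn1-/- mice carried a constitutive deletion of floxed exon 4 of Clrn1, made with PGK-cre, Clrn2-/- mice carried the clarinet nonsense mutation of Clrn2, and the double mutants came from crossing these 2 lines; the loss was thus constitutive in all 3 mutants. The stria vascularis and the modiolus were removed at dissection. Wild-type mice were not littermates of the total knockouts, so that breeding and genotype cannot be told apart. No label says that the libraries of a genotype came from separate animals. The paper counts mice as n, with at least 2 litters per group, and describes these samples as collected in triplicate. P-values measure the spread between these samples, which may be technical.

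A tight junction seals the space between neighbouring epithelial cells: claudins form its strands, occludin, tricellulin and the angulin proteins lie at the contacts between cells and at the corners where several cells meet, and plaque proteins such as ZO-1 tie the strands to actin. In the organ of Corti these junctions join hair cells to supporting cells in the reticular lamina, the barrier that keeps the potassium-rich endolymph apart from the fluid around the cell bodies, and inherited deafness follows the loss of several of its components. Adherens junctions hold cells together through cadherins linked to actin, and desmosomes do so through desmosomal cadherins, plakophilins and desmoplakin linked to keratin filaments.

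Libraries held from 30008679 to 41049302 counts on genes on the strand that carried 95.2% to 95.6% of the stranded counts, and levels are given as CPM, counts scaled to library size after TMM normalization. Clrn1 was at 23.8 to 28.6 CPM in wild-type and at 1.77 to 3.04 CPM in both genotypes that carry the deletion. Clrn2 was at 1.89 to 3.24 CPM in wild-type and at 0.854 to 1.38 CPM in the 3 mutants, and it was called lower in Clrn1-/- mice too, so that its level does not tell the Clrn2 genotypes apart. Summed over their lists, 15 hair cell markers were at 3804 to 4343 CPM in wild-type, 15 supporting cell markers at 1942 to 2123, 14 neuronal genes at 12755 to 14005 and 14 myelin genes at 23130 to 24344 CPM, so that the tissue held nerve as well as sensory epithelium. In such bulk samples, a change in the number of cells of a type and a change in RNA per cell cannot be told apart.

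The 250 bases upstream of the start of 6 members are shown because 1 short motif stood there in a larger share of the members called higher in the double mutants than of the other members. The sequences are from RefSeq on GRCm38.p6, each written 5′ to 3′ on the strand of its gene. Capitals mark CACCTG and its reverse complement CAGGTG, the E-box that the repressors of the Snail and Zeb families are known to bind. Epcam lies at chr17:87635979-87651129 (plus strand), Cldn4 at chr5:134945119-134946934 (minus), Cldn3 at chr5:134986214-134987472 (plus), Ildr1 at chr16:36693978-36726804 (plus), Dsp at chr13:38151294-38198577 (plus) and Cldn11 at chr3:31149920-31164324 (plus).
Epcam, chr17:87635729-87635978: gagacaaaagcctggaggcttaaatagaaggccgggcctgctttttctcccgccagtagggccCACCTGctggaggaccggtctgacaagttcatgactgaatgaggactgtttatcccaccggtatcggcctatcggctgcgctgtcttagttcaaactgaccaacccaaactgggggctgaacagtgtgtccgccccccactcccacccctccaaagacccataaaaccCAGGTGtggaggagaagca
Cldn4, chr5:134946935-134947184: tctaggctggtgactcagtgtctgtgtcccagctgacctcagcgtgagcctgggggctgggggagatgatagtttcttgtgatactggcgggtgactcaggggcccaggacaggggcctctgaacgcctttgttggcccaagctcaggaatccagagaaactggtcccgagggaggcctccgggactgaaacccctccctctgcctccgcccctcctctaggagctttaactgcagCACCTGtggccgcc
Ildr1, chr16:36693728-36693977: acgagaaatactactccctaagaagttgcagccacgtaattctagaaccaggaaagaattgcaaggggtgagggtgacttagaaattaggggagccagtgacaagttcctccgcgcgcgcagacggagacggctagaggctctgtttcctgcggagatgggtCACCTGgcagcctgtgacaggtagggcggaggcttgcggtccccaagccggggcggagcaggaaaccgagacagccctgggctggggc
Cldn3, chr5:134985964-134986213: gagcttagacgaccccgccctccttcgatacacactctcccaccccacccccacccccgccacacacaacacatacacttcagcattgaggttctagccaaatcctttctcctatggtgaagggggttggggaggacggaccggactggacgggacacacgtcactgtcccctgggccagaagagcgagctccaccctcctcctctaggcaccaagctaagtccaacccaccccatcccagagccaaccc
Dsp, chr13:38151044-38151293: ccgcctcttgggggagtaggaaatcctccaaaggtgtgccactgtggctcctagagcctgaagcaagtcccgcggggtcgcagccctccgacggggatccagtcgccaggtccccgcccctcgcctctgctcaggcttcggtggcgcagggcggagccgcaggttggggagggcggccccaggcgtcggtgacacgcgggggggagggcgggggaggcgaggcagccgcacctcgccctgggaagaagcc
Cldn11, chr3:31149670-31149919: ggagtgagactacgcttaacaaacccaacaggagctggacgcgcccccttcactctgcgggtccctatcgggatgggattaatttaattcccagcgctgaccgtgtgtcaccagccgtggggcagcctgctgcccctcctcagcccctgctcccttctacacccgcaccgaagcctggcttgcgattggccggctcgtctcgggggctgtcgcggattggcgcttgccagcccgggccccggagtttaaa

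The Epcam window held the motif 187 and 19 bases before the start, that of Cldn4 at 14 bases and that of Ildr1 at 88 bases, and those of Cldn3, Dsp and Cldn11 held none. Of the 43 members, 30 had a promoter in the table. CACCTG on either strand stood within the 250 bases of 10 of these 30, and in 19.4% of the 27025 genes of the table when any listed start of a gene was counted. Among members called higher in the double mutants, 8 of 12 held it (Cldn4, Cldn6, Cldn7, Cldn14, Ildr1, F11r, Tjp3 and Epcam), against 2 of 13 tested members that were not called there (Ocln and Lsr). The motif was 1 of 8 searched on both strands after expression values had been seen. GGGCGG was in 10 of 12 against 10 of 13, AACCNG in 6 of 12 against 6 of 13, and AACCGG, which AACCNG includes and which overlaps AACCGGTT, in 2 of 12 against 2 of 13. TATAAA was in 1 of 12 against 1 of 13, AACAAT likewise in 1 of 12 against 1 of 13, and AACCGGTT and a longer Sox motif that contains AACAAT were in no member. These are counts of letters in a window, with no test, and they are not binding sites.

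Junction genes of every role were higher in the double mutants. A gene was called when its adjusted p in edgeR's quasi-likelihood test was at most 0.05 and its change at least 1.5-fold. In Clrn1-/-Clrn2-/- mice, 20 of the 38 tested members were called higher than in wild-type and 0 lower, where 5.88% of all genes tested were called higher and 4.02% lower. At an unadjusted p under 0.05, 29 members were higher and 1 was lower (Cldn10). Neither DESeq2 nor limma-voom called a member lower. The calls spread over all roles: 9 of 18 tested claudins, 4 of 6 membrane proteins, 1 of 3 plaque proteins, Epcam but not Cdh1, and 5 of 9 desmosome genes. The median log2 fold change of the 38 members was 0.62, beside 0.00 over all genes. The double mutant and wild-type libraries did not overlap in 29 members, each with the double mutants higher, against 48.2% of all genes that did not overlap in either direction.

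Fewer of these genes were called in the single mutants. In Clrn1-/- mice 5 members were called higher (Cldn6, Cldn7, Cldn22, Cldn23 and Epcam) and 0 lower, beside 3.52% and 3.70% of all genes, and 3 were higher without wild-type replicate 2 or without Clrn1-/- replicate 3. At an unadjusted p under 0.05, 3 members were lower (Cldn11, Dsc2 and Pkp2), and DESeq2 and limma-voom called 0 lower. In Clrn2-/- mice 2 members were called higher (Cldn7 and Epcam; 4 without Clrn2-/- replicate 2) and 0 lower, beside 1.24% and 1.42%, with 1 lower at an unadjusted p under 0.05 (Cldn10), which DESeq2 called. The median log2 fold change was 0.09 in Clrn1-/- and 0.17 in Clrn2-/-. Without the fold minimum, 14 members were higher in Clrn1-/-, 11 in Clrn2-/- and 27 in the double mutants, beside 13.6%, 7.14% and 19.1% of all genes. Summed over the 43 genes, the level was 1407 to 1476 CPM in wild-type, 1543 to 1572 in Clrn1-/-, 1542 to 1668 in Clrn2-/- and 2003 to 2037 CPM in Clrn1-/-Clrn2-/- mice, and the double mutants overlapped no other genotype. The 3 comparisons share the wild-type libraries.

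**Figure D1:**
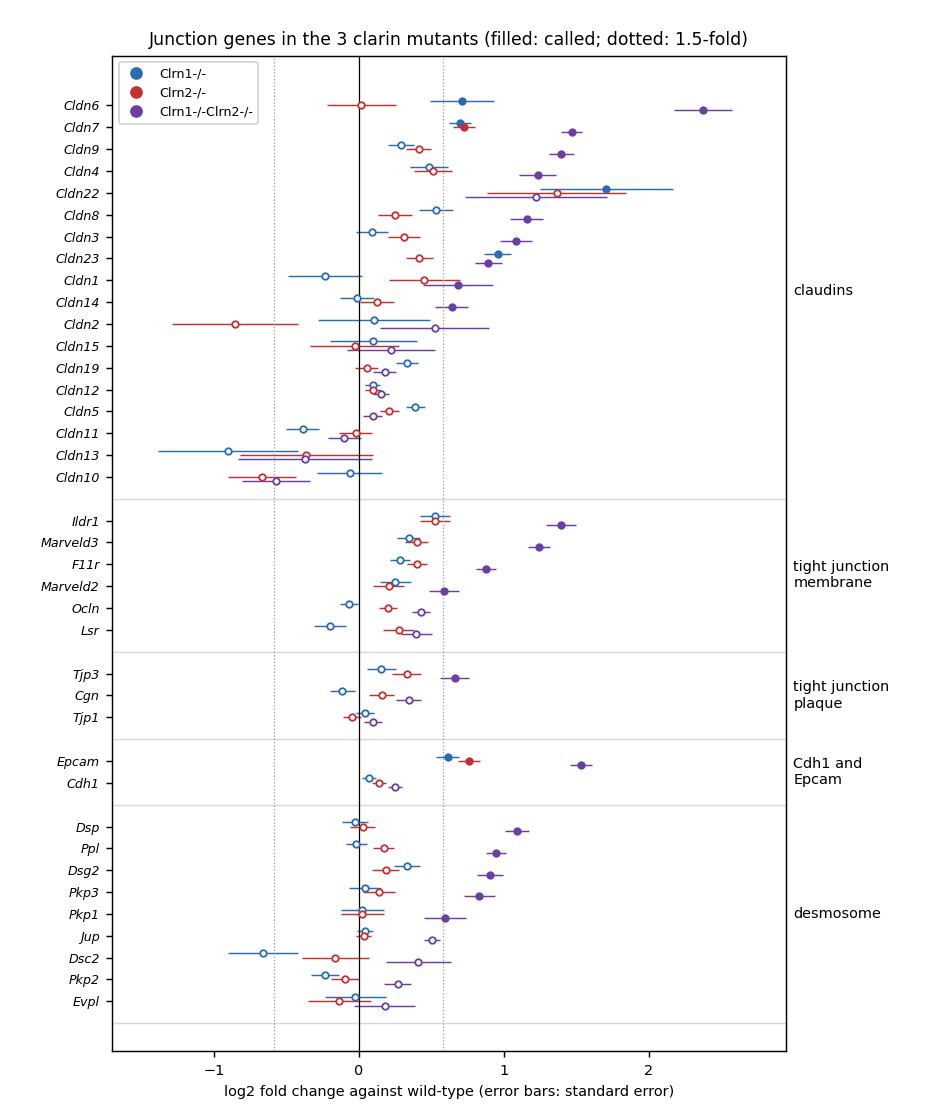
Log2 fold change against wild-type (horizontal axis, with its standard error) of the 38 tested members, ordered by role and by their value in Clrn1-/-Clrn2-/-; blue is Clrn1-/-, red Clrn2-/- and purple Clrn1-/-Clrn2-/-, filled points are called and dotted lines mark 1.5-fold. Purple points are filled for 20 members in all 5 roles, blue ones for 5 and red ones for 2, and the desmosome genes have no filled blue or red point.

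Levels of these genes spanned several orders of magnitude, and their order is given per kilobase of exon (CPM per kb) so that genes of different length can be compared. In wild-type the highest claudins were Cldn11 (150.1 ± 24.1 CPM per kb, SD, n = 3), Cldn9 (51.2 ± 6.83), Cldn19 (49.3 ± 4.58), Cldn5 (29.6 ± 2.85) and Cldn3 (14.5 ± 2.16). Cldn9 and Cldn19 did not differ beyond their spread, and the steps on either side of this pair did. The other members of highest level were Cdh1 (32.7 ± 1.90 CPM per kb), Epcam (27.3 ± 2.73), Tjp1 (23.0 ± 2.07) and Jup (16.2 ± 0.567), where Epcam and Tjp1 did not differ beyond their spread. In the double mutants Epcam stood first among these at 79.1 ± 1.31 CPM per kb, ahead of Cdh1 at 38.9 ± 0.573, and the order of Cdh1 and Epcam was thus turned. The lowest tested members were Cldn22 at 0.0904 CPM per kb and Cldn15 at 0.168 CPM per kb in wild-type.

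The shares of Cldn11 and Cldn9 in the claudin transcripts differed between genotypes. Cldn11, a claudin of the basal cells of the stria vascularis, held 45.0% ± 5.64 (SD, n = 3) of the summed claudin level per kb in wild-type. It held 33.3% ± 3.26 in Clrn1-/-, 40.6% ± 4.23 in Clrn2-/- and 30.4% ± 2.71 in the double mutants. Every Clrn1-/- and double mutant library was below wild-type in this share. Cldn9, a claudin of the reticular lamina whose loss causes deafness in mice, held 15.5% ± 2.65, 18.3% ± 0.467, 18.7% ± 1.84 and 29.4% ± 1.44 in the same order. Its share overlapped between wild-type and both single mutants and was higher in every double mutant library. The summed claudin level was 332 ± 12.1 CPM per kb in wild-type and 460.3 ± 7.05 CPM per kb in the double mutants, while the level of Cldn11 itself had a log2 fold change there of -0.10 (edgeR adjusted p = 0.542) with overlapping libraries.

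**Figure D2:**
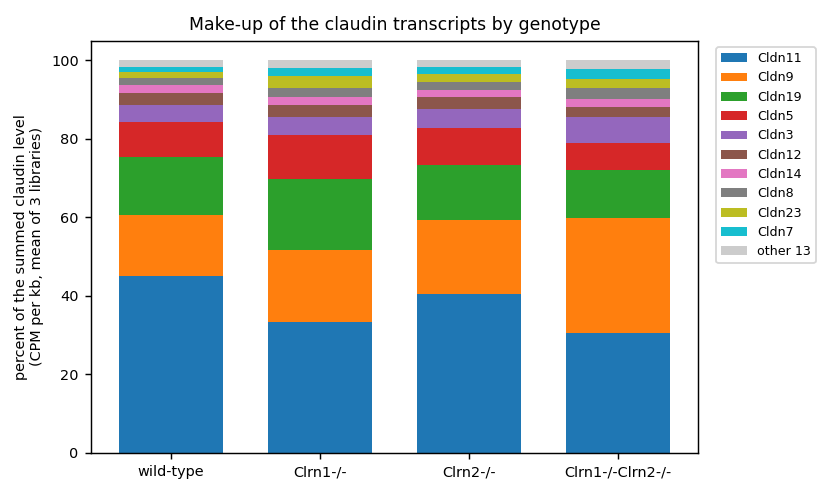
Share of each claudin in the summed claudin level per kb (vertical axis, percent, mean of 3 libraries) in the 4 genotypes, with the 10 claudins of highest share named and the other 13 together in grey. The Cldn11 segment goes from 45.0% in wild-type to 30.4% in Clrn1-/-Clrn2-/-, and the Cldn9 segment from 15.5% to 29.4%.

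Cldn9 and Cldn6 are neighbours on chromosome 17, with Cldn6 at chr17:23679249-23682446 on the plus strand and Cldn9 at chr17:23682584-23684026 on the minus strand, 137 bases apart. Cldn9 was at 70.3, 66.4 and 85.1 CPM in the wild-type libraries, 90.1, 86.9 and 94.8 in Clrn1-/-, 102, 85.1 and 109 in Clrn2-/-, and 188, 197 and 201 CPM in Clrn1-/-Clrn2-/-. Every double mutant library lay above all the others, and the single mutants lay above wild-type by less. The log2 fold change was 0.29 in Clrn1-/-, 0.41 in Clrn2-/- and 1.40 (SE 0.09, edgeR adjusted p = 7.8e-09) in the double mutants. Cldn6, a claudin best known from embryonic epithelia, was at 1.18, 0.931 and 0.607 CPM in wild-type, 1.27, 1.47 and 1.66 in Clrn1-/-, 0.941, 0.979 and 0.815 in Clrn2-/- and 4.0, 5.08 and 4.95 CPM in the double mutants. It had the largest change of any member in the double mutants, a log2 fold change of 2.38 (SE 0.20), and its Clrn2-/- libraries lay inside the wild-type range. Its log2 fold change of 0.71 in Clrn1-/- was called, and 5 of 21 alternative settings lost that call.

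Cldn3 and Cldn4, which lie 39279 bases apart on chromosome 5, are claudins of many epithelia. Cldn3 was at 18.2, 15.6 and 21.1 CPM in wild-type, 19.6, 18.9 and 20.0 in Clrn1-/-, 24.8, 18.3 and 25.2 in Clrn2-/- and 37.6, 40.8 and 38.3 CPM in the double mutants. The single mutants overlapped wild-type and the double mutants did not, with a log2 fold change of 1.09 (SE 0.11). Cldn4 was at 3.29, 3.04 and 3.24 CPM, then 4.05, 4.40 and 4.91, then 5.14, 3.58 and 4.89, and 7.61, 7.55 and 7.37 CPM in the same order of genotypes. All 3 mutants were above wild-type without overlap, at log2 fold changes of 0.48, 0.51 and 1.23. Only the last reached 1.5-fold. The third claudin of this stretch, Cldn13, was at 0.207 to 1.15 CPM in all libraries, with overlapping genotypes. Reads of Cldn3 lie opposite the antisense gene Wbscr25, and the counts used are those of the Cldn3 strand.

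Cldn7, which is known to associate with Epcam, rose in all 3 mutants. It was at 8.99, 8.0 and 8.22 CPM in wild-type, 13.4, 13.8 and 13.7 in Clrn1-/-, 13.6, 13.1 and 15.0 in Clrn2-/- and 22.8, 24.8 and 22.2 CPM in the double mutants. The single mutants overlapped each other and lay between wild-type and the double mutants, which overlapped neither. Its log2 fold changes were 0.70, 0.73 and 1.47, each called, and the sum of the first 2 differed from the third by 0.04 (SE 0.10). Cldn8 was at 15.6, 12.6 and 13.5 CPM in wild-type, 24.9, 16.7 and 18.9 in Clrn1-/-, 17.3, 15.9 and 16.3 in Clrn2-/- and 31.4, 31.6 and 30.2 CPM in the double mutants, with log2 fold changes of 0.53, 0.25 and 1.16. The last was called.

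Cldn23 rose in all 3 mutants. It was at 8.91, 9.70 and 11.2 CPM in wild-type, 18.2, 19.3 and 20.5 in Clrn1-/-, 12.6, 12.7 and 14.5 in Clrn2-/- and 18.3, 16.9 and 20.1 CPM in the double mutants, so that Clrn1-/- and the double mutants overlapped and no mutant overlapped wild-type. The log2 fold change was 0.96 (SE 0.09) in Clrn1-/-, 0.42 (edgeR adjusted p = 0.0075, under the fold minimum) in Clrn2-/- and 0.89 (SE 0.09) in the double mutants. Cldn14, a claudin of hair cells and supporting cells whose loss causes deafness, was at 12.2 to 15.0 CPM in wild-type, 11.3 to 16.0 in Clrn1-/-, 13.2 to 17.3 in Clrn2-/- and 20.5, 21.3 and 21.8 CPM in the double mutants, where it was called at a log2 fold change of 0.64 (SE 0.12). Cldn1 was called in the double mutants at 0.68 (SE 0.24), but its libraries there (6.59, 4.84 and 4.43 CPM) overlapped those of wild-type (2.53, 4.96 and 2.35 CPM), and 5 of 21 alternative settings lost the call.

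The remaining claudins were not called in the double mutants. Cldn11 was at 281, 326 and 236 CPM in wild-type, 186, 215 and 243 in Clrn1-/-, 243, 299.8 and 288 in Clrn2-/- and 293, 252 and 242 CPM in the double mutants. Its log2 fold change in Clrn1-/- was -0.39 (SE 0.11, edgeR adjusted p = 0.0201), under the fold minimum and with overlapping libraries, and in the double mutants it was -0.10. Cldn19, a claudin of Schwann cells, was at 216, 188 and 226 CPM in wild-type and 224, 253 and 236 CPM in the double mutants. It was higher in Clrn1-/- (283, 260.5 and 251 CPM) by 0.33, with no overlap, while 14 myelin genes summed to 22978 to 23836 CPM there against 23130 to 24344 CPM in wild-type. Cldn5, the claudin of blood vessel endothelium, was at 46.5, 40.6 and 38.8 CPM in wild-type, 57.2, 57.0 and 51.0 in Clrn1-/-, 49.97, 45.8 and 49.9 in Clrn2-/- and 44.6, 44.3 and 45.7 CPM in the double mutants. It was higher by 0.39 on the log2 scale in Clrn1-/- (edgeR adjusted p = 0.000359), under the fold minimum, whereas 16 other endothelial genes had a median log2 fold change of -0.19 there, with 1 called higher and 0 lower. In the double mutants the endothelial list had 0 genes called in either direction and a median of -0.10, with 1 gene higher and 5 lower at an unadjusted p under 0.05. Cldn12 was between 41.0 and 49.1 CPM in all 12 libraries.

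Cldn22 was called in Clrn1-/- at a log2 fold change of 1.71 (SE 0.46), on 90 counts over all 12 libraries and no more than 0.416 CPM in any. Its gene lies opposite Wwc2, and without counts of its own strand it cannot be told apart from that gene. Cldn2, Cldn10, Cldn13 and Cldn15 were at 4.41 CPM or less in each library. Cldn10 was lower by 0.67 in Clrn2-/- and by 0.57 in the double mutants on the log2 scale, neither past the adjusted threshold (edgeR adjusted p = 0.07 and 0.0671), with overlapping libraries.

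**Figure D3:**
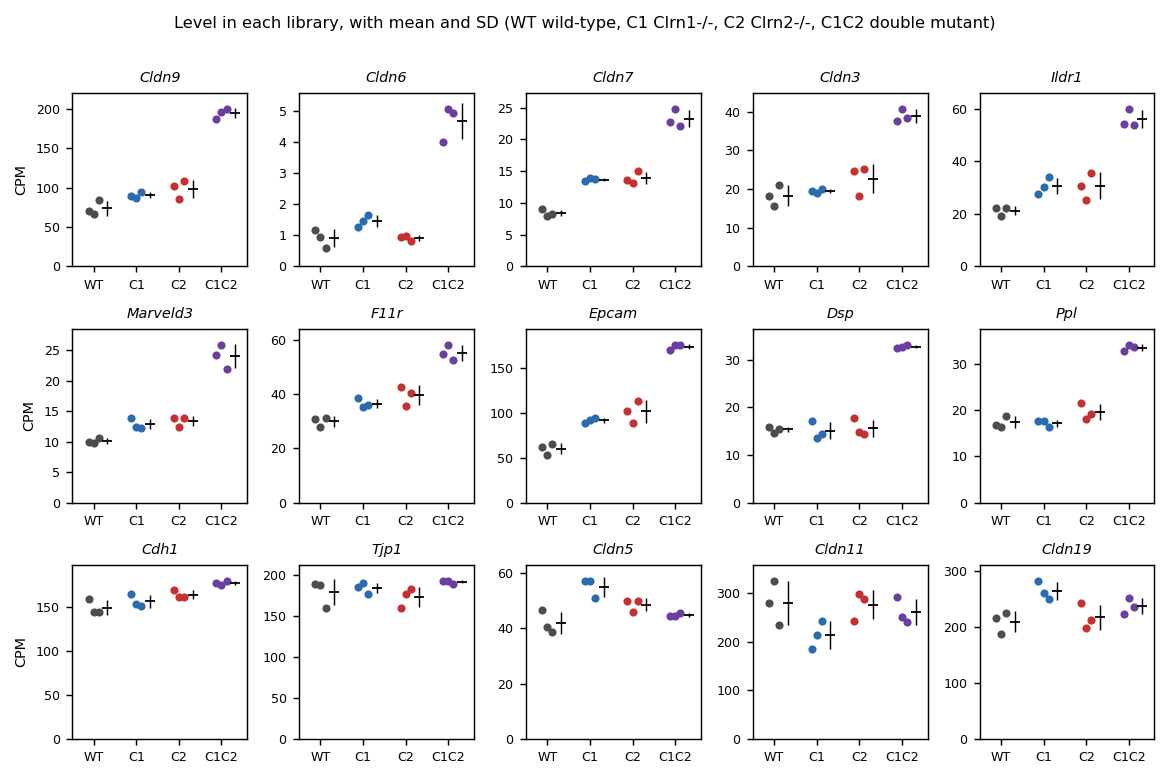
Level of 15 members in each library (vertical axis, CPM from 0; 3 points per genotype, with the mean and SD beside them). In Cldn9, Cldn6, Cldn7, Cldn3, Ildr1, Marveld3, F11r, Epcam, Dsp and Ppl the double mutant points lie above all others, while Cdh1, Tjp1, Cldn5, Cldn11 and Cldn19 have fold changes between 0.765 and 1.31 in every mutant against wild-type.

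Of the membrane proteins of the tight junction, Ildr1 and Marveld3 changed most. Ildr1 (angulin-2), which recruits tricellulin to the corners between cells and whose loss causes deafness, was at 22.3, 19.3 and 22.3 CPM in wild-type, 27.6, 30.2 and 34.0 in Clrn1-/-, 30.8, 25.5 and 35.8 in Clrn2-/- and 54.3, 60.2 and 54.0 CPM in the double mutants. The single mutants overlapped each other and were above wild-type, and the double mutants were above both. The log2 fold changes were 0.53, 0.53 and 1.40 (SE 0.10), and the last was called. Marveld3, a relative of occludin, was at 10.0, 9.75 and 10.6 CPM in wild-type, 13.8, 12.5 and 12.3 in Clrn1-/-, 13.9, 12.4 and 13.8 in Clrn2-/- and 24.2, 25.9 and 21.97 CPM in the double mutants, a log2 fold change there of 1.24 (SE 0.08) that was called. F11r, the junctional adhesion molecule A, was at 27.7 to 31.2 CPM in wild-type, 35.1 to 38.4 in Clrn1-/-, 35.5 to 42.6 in Clrn2-/- and 52.5 to 58.2 CPM in the double mutants. It followed the same order, with a log2 fold change of 0.88 (SE 0.07) in the double mutants.

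Marveld2, which encodes tricellulin and is a deafness gene, reached the fold minimum only narrowly. It was at 5.51, 5.42 and 6.88 CPM in wild-type, 6.83, 6.99 and 7.40 in Clrn1-/-, 7.50, 6.06 and 7.0 in Clrn2-/- and 8.69, 8.98 and 9.15 CPM in the double mutants. The double mutant libraries were above all others, at a log2 fold change of 0.59 (SE 0.11), and 12 of 21 alternative settings lost the call, all with the gene higher. Occludin (Ocln) and the lipolysis-stimulated receptor Lsr (angulin-1) were higher in the double mutants by 0.43 and 0.40, past the adjusted threshold and under the fold minimum. Lsr was at 35.4 to 39.2 CPM in the double mutants and 24.1 to 24.6 CPM in Clrn1-/-, and this difference of 0.59 (SE 0.11) was called.

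Among the plaque proteins 1 of 3 was called. Tjp3 (ZO-3) was at 15.8, 12.8 and 16.1 CPM in wild-type, 16.4, 16.1 and 17.2 in Clrn1-/-, 19.5, 15.8 and 20.9 in Clrn2-/- and 22.7, 23.5 and 24.5 CPM in the double mutants, where it was called at a log2 fold change of 0.66 (SE 0.10). Tjp1 (ZO-1), the scaffold of tight junctions in all epithelia and endothelia, was at 189, 188 and 161 CPM in wild-type and 193, 193 and 190.0 CPM in the double mutants. Its log2 fold change there was 0.10 (SE 0.06) and was not past the threshold (edgeR adjusted p = 0.221). Cingulin (Cgn) was higher by 0.35 in the double mutants, past the adjusted threshold and under the fold minimum.

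Epcam, an adhesion protein of epithelia, rose in each mutant. It was at 61.7, 53.2 and 64.8 CPM in wild-type, 89.1, 91.4 and 94.2 in Clrn1-/-, 102, 88.9 and 114 in Clrn2-/- and 170.4, 176 and 175 CPM in the double mutants. The single mutants overlapped each other, and both stood apart from wild-type and from the double mutants. The log2 fold changes were 0.61 (SE 0.08), 0.76 (SE 0.08) and 1.54 (SE 0.08), or 2.90-fold for the last, and each was called. Cdh1, the cadherin of epithelial adherens junctions, was at 160, 145 and 144 CPM in wild-type and 178, 175 and 180.4 CPM in the double mutants. This log2 fold change of 0.25 (SE 0.05) was past the adjusted threshold without reaching 1.5-fold. The difference between the fold changes of Epcam and Cdh1 was not tested.

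Calls among desmosome genes were confined to the double mutants in these comparisons with wild-type: 5 of 9 were called higher in Clrn1-/-Clrn2-/- mice, and 0 were called in either direction in Clrn1-/- or Clrn2-/- mice. In Clrn1-/-, 1 was higher and 2 were lower at an unadjusted p under 0.05, and in Clrn2-/- 1 was higher and 0 lower. With DESeq2 and limma-voom the single mutants had 0 calls among the 9 as well, while 4 of 21 alternative settings called Dsc2 lower in Clrn1-/-. Dsp (desmoplakin), which anchors keratin filaments, was at 15.8, 14.7 and 15.5 CPM in wild-type, 17.2, 13.6 and 14.5 in Clrn1-/-, 17.7, 14.8 and 14.4 in Clrn2-/- and 32.4, 32.6 and 33.1 CPM in the double mutants. Its single mutants overlapped wild-type on both sides and its double mutants stood far above, with log2 fold changes of -0.03, 0.03 and 1.09 (SE 0.09, edgeR adjusted p = 9.17e-08). Ppl (periplakin), a linker of the same protein family, was at 16.8, 16.4 and 18.8 CPM, then 17.5, 17.6 and 16.3, then 21.4, 18.0 and 19.2, and 32.7, 34.1 and 33.5 CPM in the same order. It showed the same form, with log2 fold changes of -0.02, 0.17 and 0.95 (SE 0.07).

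Among the desmosomal cadherins, Dsg2 was at 7.67, 7.81 and 7.69 CPM in wild-type, 10.2, 9.24 and 9.74 in Clrn1-/-, 8.45, 8.26 and 9.64 in Clrn2-/- and 13.9, 16.2 and 13.3 CPM in the double mutants, where it was called at 0.90 (SE 0.09). Its partner Dsc2 was at 1.85, 1.12 and 1.57 CPM in wild-type, 0.949, 0.906 and 1.01 in Clrn1-/-, 1.29, 1.13 and 1.63 in Clrn2-/- and 2.62, 1.93 and 1.55 CPM in the double mutants. Of its comparisons between genotypes, only that of the double mutants with Clrn1-/- was called, at 1.07 (SE 0.24). Its interaction, given below, was called as well. Of the plakophilins, which tie desmosomal cadherins to desmoplakin, Pkp3 was at 7.37 to 8.35 CPM in wild-type and 13.3 to 15.6 CPM in the double mutants (log2 fold change 0.83, SE 0.11). Pkp1 was at 2.39 to 2.93 CPM in wild-type and 3.57 to 4.46 CPM in the double mutants (0.59, SE 0.14), a call that 4 of 21 alternative settings lost. Pkp2 was at 6.74 to 7.51 CPM in wild-type and 8.32 to 8.92 CPM in the double mutants, with no overlap and a log2 fold change of 0.27 under the fold minimum. Jup (plakoglobin), which serves both adherens junctions and desmosomes, was at 105, 107 and 100.1 CPM in wild-type and 143, 148 and 152 CPM in the double mutants. Its log2 fold change of 0.51 (SE 0.05) was under the fold minimum. Evpl (envoplakin) was at 1.04 to 1.77 CPM in all libraries and did not pass the test.

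The double mutants were also set against each single mutant. Of the 38 members, 17 were called higher in Clrn1-/-Clrn2-/- than in Clrn1-/- mice and 0 lower, beside 4.62% and 2.61% of all genes, and 14 higher than in Clrn2-/- mice and 0 lower, beside 3.67% and 1.43%. At an unadjusted p under 0.05, 2 members (Cldn5 and Cldn10) were lower than in Clrn1-/- and 0 lower than in Clrn2-/-. Of the 20 members called in the double mutants against wild-type, 15 were also called against Clrn1-/-, 13 against Clrn2-/- and 12 against both, and 16 were called in neither single mutant. Between the single mutants, only Cldn6 was called, higher in Clrn1-/- by 0.69 (SE 0.22), beside 2.40% of all genes higher and 2.34% lower. With limma-voom 0 members were called there, and with a replicate block the 1 call passed from Cldn6 to Cldn1.

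Whether the effect of losing both clarins differed from the sum of the single effects was tested as an interaction on the log2 scale. Of the 38 members, 8 were called, each with a double mutant above the sum, beside 3.58% of all genes above and 1.92% below. These 8 were 3 claudins (Cldn3, Cldn6 and Cldn9) and 5 desmosome genes (Dsp, Dsc2, Pkp2, Pkp3 and Ppl). The interaction was 1.65 (SE 0.30) for Cldn6, 1.09 (SE 0.12) for Dsp, 0.79 (SE 0.10) for Ppl, 0.69 (SE 0.12) for Cldn9, 0.68 (SE 0.15) for Cldn3 and 0.65 (SE 0.15) for Pkp3. For Dsc2 (1.24, SE 0.33) and Pkp2 (0.59, SE 0.14) it included single mutant values below wild-type, and 8 of 20 alternative settings lost the call of Pkp2. For Epcam (0.16, SE 0.11), Cldn7 (0.04, SE 0.10), Ildr1 (0.34, SE 0.15) and F11r (0.20, SE 0.10) the interaction was not past the threshold. The double mutant value was above the sum in 33 of 38 members, beside 9693 of all 19052 genes. The clearest members below the sum were Cldn5 (-0.51) and Cldn23 (-0.49), past the adjusted threshold and under the fold minimum. Leaving out Clrn2-/- replicate 2 lowered the 8 calls to 5. Other lists described below had called interactions too. Above the sum were 5 of 14 simple epithelium markers, 4 of 15 supporting cell markers and 7 of 8 red blood cell markers. Below it were 0, 1 and 0 of these. Of 62 further junction genes, 2 were called above the sum and 2 below.

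**Figure D4:**
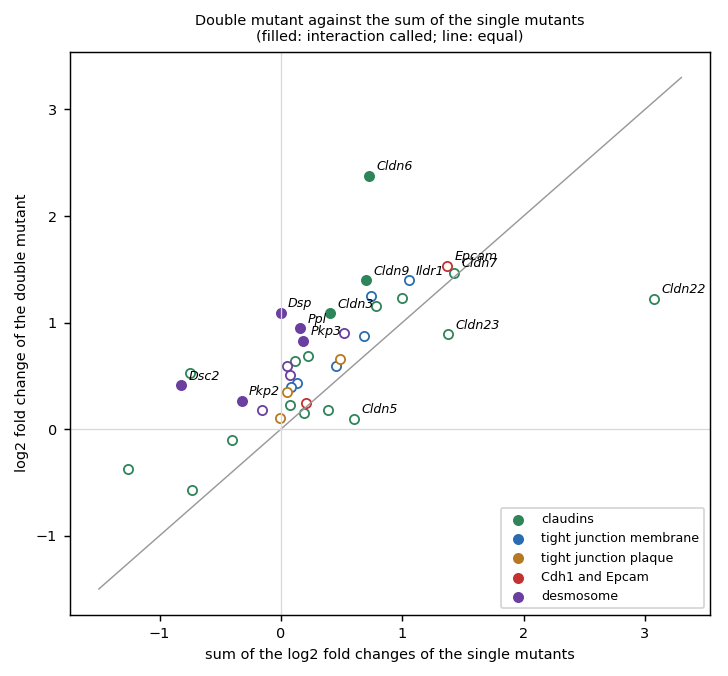
Log2 fold change of the double mutant (vertical axis) against the summed log2 fold changes of both single mutants (horizontal axis) for the 38 tested members, coloured by role, with filled points for a called interaction and a line where the 2 are equal. Epcam and Cldn7 lie near the line, Dsp, Ppl and Pkp3 lie near 0 on the horizontal axis and near 1 on the vertical one, and Cldn6 lies furthest above the line among called members.

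A list of 70 further genes of the same junctions held 62 that were tested, and in the double mutants 9 were called higher and 0 lower, beside 5.88% and 4.02% of all genes, with a median log2 fold change of 0.09. DESeq2 and limma-voom each called 9 higher and 0 lower as well, and at an unadjusted p under 0.05, 26 were higher and 12 lower. In Clrn1-/- 4 of the 62 were called higher and 1 lower, beside 3.52% and 3.70% of all genes, and in Clrn2-/- 2 higher and 1 lower, beside 1.24% and 1.42%. Corneodesmosin (Cdsn) was at 0.411 to 0.759 CPM in wild-type and 2.79 to 3.27 CPM in the double mutants, and it was called in all 3 mutants. Igsf5, a junctional adhesion protein, was called in the double mutants at 1.81 (SE 0.20). Of the others, Nectin2, Nectin3, Ctnnd1 (p120-catenin), Vcl (vinculin), Cxadr and Crb3 were called higher in the double mutants, at 0.67 to 0.87.

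Of the genes called in the single mutants, the scaffold gene Magi1 was at 122, 123 and 85.2 CPM in Clrn1-/- and at 52.9 to 60.2 CPM in all other libraries. Lmo7, a linker of adherens junctions to actin, was at 58.6 to 62.5 CPM in wild-type, 33.5 to 36.6 in Clrn1-/-, 40.3 to 47.4 in Clrn2-/- and 41.2 to 44.9 CPM in the double mutants, so that it was lower in every mutant and called lower in Clrn1-/-. P-cadherin (Cdh3) was below wild-type in every library of each mutant, at log2 fold changes of -0.49 (edgeR adjusted p = 0.022) in Clrn1-/-, -0.73 (0.00398) in Clrn2-/- and -0.55 (0.00846) in the double mutants, and only that in Clrn2-/- reached 1.5-fold. The desmosomal cadherins of stratified epithelium, Dsg1a, Dsg1b, Dsg1c, Dsg3, Dsg4, Dsc1 and Dsc3, did not pass the filter on low counts.

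Genes of simple epithelium moved with the junction genes. Of 14 tested markers of simple epithelium, 12 were called higher in the double mutants and 0 lower, beside 5.88% and 4.02% of all genes. Their median log2 fold change was 0.96. Their summed level was 234.5 to 254 CPM in wild-type, 310.3 to 343 in Clrn1-/-, 298 to 344 in Clrn2-/- and 549 to 576 CPM in Clrn1-/-Clrn2-/- mice. At an unadjusted p under 0.05, 1 was lower. Krt8 and Krt18, the keratin pair that desmoplakin anchors in simple epithelia, rose by 2.91 and 2.14 on the log2 scale, while Krt7 was at -0.93 without passing the test and Cdh16 was at 0 in the 3 double mutant libraries. In Clrn1-/- 3 of the 14 were called higher and in Clrn2-/- 2, beside 3.52% and 1.24% of all genes. The part of these markers in the result was not tested.

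Among 16 tested regulators of epithelial identity, 6 were called higher in the double mutants and 0 lower, beside 5.88% and 4.02% of all genes. Zeb1 was lower, past the adjusted threshold and under the fold minimum. Those called were the splicing regulators Esrp1 and Esrp2 (1.63 and 1.05), Grhl2 (1.03), known to activate epithelial junction genes, Ovol1 (2.37), Ovol2 (0.83) and Elf3 (1.17). Esrp1, Esrp2 and Grhl2 are also among the simple epithelium markers. Of the repressors known to bind the E-box CACCTG, Zeb1 was at -0.20, Zeb2 at 0.12, Snai1 at 0.27 and Snai2 at 0.28, and none was called. Whether any of these repressors binds the promoters shown above was not tested.

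Markers of the cells of the organ of Corti changed in both directions, where 5.88% of all genes were called higher in the double mutants and 4.02% lower. Of 15 supporting cell markers, 6 were called higher in the double mutants (Fgfr3, Kcnj16, Lfng, Otoa, S100a1 and Tectb) and 1 lower (Prox1), with a median of 0.38 and a summed level of 3075 to 3262 CPM against 1942 to 2123 CPM in wild-type. Of 15 hair cell markers, 4 were called higher (Chrna9, Ocm, Strc and Tmc1) and 2 lower (Calb2 and Gfi1), with a median of 0.13 and a summed level of 2679 to 2914 CPM against 3804 to 4343 CPM. Of 14 neuronal genes, 4 were called lower and 2 higher, beside 4.02% and 5.88% of all genes, with a median of -0.41 and a summed level of 8971 to 9135 CPM against 12755 to 14005 CPM. Of 12 macrophage markers 7 were called higher, with a summed level of 251 to 293 CPM against 154 to 203 CPM.

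Other epithelia were looked for by the same means, where 5.88% of all genes were called higher in the double mutants and 4.02% lower. Of 15 markers of squamous epithelium 6 were tested and 3 were called higher in the double mutants (Sprr1a at a log2 fold change of 5.47, Lypd3 at 1.80 and Sfn at 1.26), with a summed level of 35.0 to 36.9 CPM against 14.5 to 14.9 CPM in wild-type. Sprr1a and Lypd3 were also called higher in Clrn1-/- (3.43 and 1.00) and Clrn2-/- (3.84 and 1.15). Of the keratins in the list, Krt5 and Krt14 were each at 0.0297 CPM or less in every double mutant library, Krt6a was at 0 there and Krt10 was at 4.52 to 4.82 CPM against 3.47 to 4.16 CPM in wild-type. Ciliated and secretory markers of the middle ear summed to 35.0 to 44.7 CPM in the double mutants against 52.6 to 62.9 CPM in wild-type. Of 7 tested, 1 was called lower. In Clrn1-/- they summed to 82.8 to 121 CPM, with 3 of 7 called higher and 0 lower, beside 3.52% and 3.70% of all genes. Of the marginal cell markers of the stria vascularis, 1 of 8 was called higher in the double mutants and 2 lower, at 290.3 to 324 CPM against 318 to 414 CPM. Called lower there were 2 of 8 muscle and 2 of 8 red blood cell markers. Of 13 fibroblast markers 3 were called higher and 1 lower, of 10 bone markers 1 and 1, and of 7 pigment cell markers 3 and 1. Of 14 myelin genes 1 was called higher. In Clrn1-/- muscle markers summed to 39.6 to 45.9 CPM against 12.2 to 14.4 CPM in wild-type, with 1 of 8 called higher. Red blood cell markers summed to 292 to 396 CPM in Clrn1-/- against 720 to 1171 CPM, with 7 of 8 called lower. In Clrn2-/- 5 of 8 were called lower. The part of any of these lists in the rise of the junction genes was not tested.

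**Figure D5:**
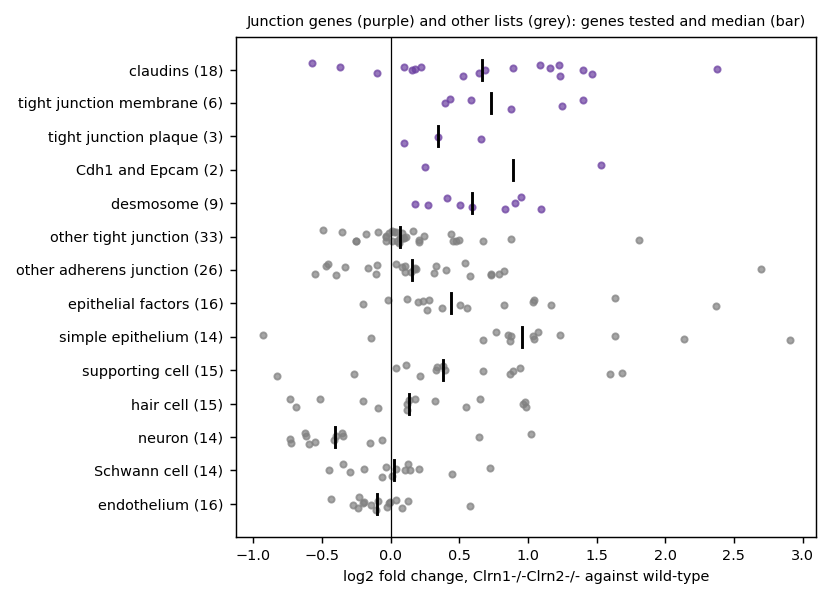
Log2 fold change of Clrn1-/-Clrn2-/- against wild-type (horizontal axis) for every tested gene of the junction set by role (purple) and of other lists (grey), with the number of genes in brackets and a bar at the median. The median lies at 0.66 for claudins, 0.59 for desmosome genes and 0.96 for simple epithelium markers, and at 0.38, 0.13, -0.41 and -0.10 for supporting cell, hair cell, neuron and endothelium markers.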

How the data were processed

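Organ of Corti RNA was taken at postnatal day 21 and read in 12 libraries, 3 per genotype, as poly-A selected, strand-specific paired reads of 100 bases. The deposited values are counts per gene, which the authors made with STAR on GRCm38.p6 with the Gencode M24 annotation, without normalization. The column of the reverse strand was used, and reads not assigned to a gene (13.5% to 15.8%) were left out. Groups follow the genotype labels.

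The tests ran in R 4.3.3 and edgeR 4.0.16: filterByExpr with a minimum count of 10, TMM scaling, all 12 libraries fitted with genotype alone, quasi-likelihood tests, and p-values adjusted by Benjamini-Hochberg over 19052 genes. Calls needed a change of 1.5-fold or more and an adjusted p no larger than 0.05. CPM used TMM-scaled library sizes, and levels per kb used exon lengths of Gencode M21, an earlier release. The common coefficient of variation between libraries was 6.15%. Counting noise was smaller than the spread within each genotype. The fit was checked on simulated counts. Alternatives were limma-voom (limma 3.58.1), DESeq2 1.42.0, other scalings, no filter, unstranded counts, a replicate block, the compared genotypes alone, no fold minimum and leaving out each library.

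The members and lists were chosen with earlier results of these data known, and the lists, of other junction genes, epithelial regulators and markers of cell types, are descriptions without a test of their own. Members named are those called in a comparison with wild-type or the interaction at a mean of at least 1 CPM in a genotype, deafness genes of the set and those of highest level per kb, and other junction genes and regulators named by rule are those with the largest change or a called decrease. Members of lower rank, and the other list genes that complete a count, were named after their values were seen. The values of 1 of the other junction genes are not reported here.

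The replicate numbers deviated together in all 3 pairs of wild-type and Clrn1-/- (correlations of 0.291, 0.134 and 0.111 over 12453 genes). Over all genotypes 7 of 18 pairs had a correlation above 0.1. Other pairs deviated in opposite directions, down to -0.279 for replicate 2 of wild-type and the double mutants. No label says that a number marks a shared batch.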

Additional observations from a re-analysis of the deposited data

Results flagged for a closer look

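For 11 genes the effect of losing one clarin differed with the genotype of the other, by the interaction term of the edgeR model with its adjusted p. Values are differences on the log2 scale between the double mutant and the sum of the single mutants. Among claudins the interaction was 1.65 for Cldn6 (adjusted p = 0.00162), 0.69 for Cldn9 (0.00108) and 0.68 for Cldn3 (0.00656). Cldn9 and Cldn3 were above wild-type in every double mutant library, and Cldn6 was above wild-type in all 3 of them while its Clrn2-/- libraries lay inside the wild-type range.

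Among desmosome genes the interaction was 1.09 for Dsp (adjusted p = 3.06e-05), 0.79 for Ppl (8.91e-05), 0.65 for Pkp3 (0.00866), 0.59 for Pkp2 (0.0071) and 1.24 for Dsc2 (0.0177). Dsc2 and Pkp2 were lower than wild-type in all 3 Clrn1-/- libraries, at unadjusted p-values that did not pass the adjusted threshold in edgeR.

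Of the other junction genes, Magi1 had an interaction of -0.87 (edgeR adjusted p = 0.000484), with Clrn1-/- libraries at 122, 123 and 85.2 CPM and double mutant libraries at 59.8, 56.2 and 60.2 CPM. Lmo7 had 0.77 (adjusted p = 2.55e-05), with every mutant lower than wild-type. Cdh3 had 0.67 (adjusted p = 0.042), and 10 of 20 alternative settings lost that call.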

How the results depend on the processing

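Under the alternatives, no called value of a named gene turned direction. Of the values for named genes, 2204 kept their side of the threshold, 37 gained a call and 58 lost one. The count of 20 members higher in the double mutants was 18 to 20 under all settings that keep the fold minimum and all libraries, 27 without the fold minimum, and 16 to 20 with 1 library left out, and 17 and 14 members above Clrn1-/- and Clrn2-/- became 27 and 23 without the fold minimum and 14 to 18 and 13 to 15 with 1 library left out. In Clrn1-/- the 5 members higher became 3 with the 2 genotypes alone, 14 without the fold minimum and 3 to 6 with 1 library left out. In Clrn2-/- the 2 higher became 11 without the fold minimum and 2 to 4. Members lower, 0 in each mutant, became 1 without the filter in each (Dsc2 in Clrn1-/-, Cldn10 in the others), 1 without the fold minimum in Clrn1-/- (Cldn11), 1 with DESeq2 in Clrn2-/- (Cldn10), and 0 to 1 with 1 library left out (Dsc2 without wild-type replicate 2 or double mutant replicate 1 or 3, and Cldn13 without wild-type replicate 3, in Clrn1-/-; Cldn10 without wild-type replicate 3 in Clrn2-/- and the double mutants, and without double mutant replicate 1 in the latter). The 1 member that differed between the single mutants was 0 with limma-voom, 2 with DESeq2 or the 2 genotypes alone, 4 without the filter, 7 without the fold minimum and 0 to 3 with 1 library left out. The 8 interactions became 15 without the fold minimum and 5 to 9 with 1 library left out. With a replicate block, 5, 2 and 20 members were higher in Clrn1-/-, Clrn2-/- and the double mutants, and the 1 call between the single mutants passed from Cldn6 to Cldn1; the block changed no call of a named gene against wild-type or in the interaction. The cause of these changes was not tested. Depth limits Cldn22, with 90 counts in all, and the 5 claudins under the filter.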
